A study of Mus musculus with 8 samples.

Results

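Open chromatin was described at 8 mouse genes whose human counterparts cause inherited Parkinson disease (PD) when mutated: Lrrk2, Park7, Pink1, Vps35, Atp13a2, Fbxo7, Dnajc6 and Synj1. The genes were taken by name from that list, 8 of 21728 protein-coding genes on the autosomes and the X chromosome. For each gene, the window read was the gene body with 20 kb on each side (mm10, GENCODE M21). The peak lists came from ATAC-seq, an assay of accessible DNA: Tn5 transposase inserts adapters where chromatin is open, and sequenced fragments pile up there. The cells were SN4741, a clonal mouse line from embryonic substantia nigra, labelled as neural precursor cells of WT genotype, in which a tyrosine hydroxylase promoter drives a temperature-sensitive T antigen. There were 4 libraries from undifferentiated cells at the permissive temperature (37 °C, medium with 10% serum) and 4 from cells differentiated at the non-permissive temperature (39 °C, 0.5% serum, 48 h). Temperature and serum changed together and cannot be told apart, and copy number at these loci was not measured here.

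Several of these proteins act along the same routes in the cell. PINK1 is a kinase that marks damaged mitochondria for removal by Parkin, FBXO7 is an F-box subunit of a ubiquitin ligase that also takes part in that process, and DJ-1, the product of Park7, protects cells against oxidation. LRRK2 phosphorylates Rab GTPases on membranes, VPS35 is the core of the retromer that sorts cargo out of endosomes, and ATP13A2 pumps polyamines out of the lysosome. Auxilin (Dnajc6) and synaptojanin 1 (Synj1) both help to strip the clathrin coat from synaptic vesicles after endocytosis.

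The caller kept 49787392 to 169183346 fragments per library, most in replicates 1 and 4 at 37 °C, with 169183346 and 158068253, against at most 71220050 in the other 6. The lists held 74026 to 92013 peaks at 37 °C and 54845 to 68410 at 39 °C, so every list at 37 °C was longer than every list at 39 °C, replicate 3 with the fewest fragments included. No label says that replicates were separate cultures, so p-values measure the spread between these libraries, which may be technical. As a check of the labelled cell type, 7 of 8 neural precursor markers had a promoter region in all 8 libraries (Fabp7 had none), against 5 of 11 dopaminergic markers and 61.6% of all coding genes. Of the latter, Ddc, Slc18a2 and Lmx1a had no promoter region at either temperature. Promoter regions in all 8 libraries were found for 4 of 5 neuronal, 3 of 3 astrocyte, 1 of 3 oligodendrocyte and 1 of 3 microglial markers. Ranked by strength among coding promoters (100 the strongest), the 7 precursor markers ran at 37 °C from 2.00 (Pax6) and 3.26 (Msi1) to 96.6 (Hes1). The astrocyte markers Gfap, Aqp4 and Slc1a2 were at 17.3, 10.5 and 6.52, so these counts do not settle the cell type.

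A region was a stretch of merged peaks that at least 2 libraries called, and a promoter region was one at most 1 kb from any annotated start of transcription (TSS) of the gene. Of the 8 genes, 7 had a promoter region called in all 8 libraries, beside 61.6% of coding genes. The exception was Dnajc6, which had no peak within 1 kb of any of its 8 annotated TSSs in any library. The heights in the lists are not scaled for depth, so strength was read as a percentile: the share of the peaks of the same list that a peak outranked by −log10 q, with 100 the strongest.

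The sequences below carry the main contrasts, and they come from the mouse reference genome (GRCm38.p6) or from RefSeq promoters of that build, in which 7 of the 8 genes had an entry, all but Vps35. Capitals mark matches on either strand to a consensus motif: GGGCGG (SP/KLF), CCAAT (NFY), AAGATGGC (YY1), TGANTCA (AP-1), TGTGGT (RUNX) and TGACNNNGC (antioxidant element). Pink1 is shown because its promoter was the only one among the 7 that ranked higher at 39 °C, and Dnajc6, chosen after its values were seen, because it had no peak. The Lrrk2 intron is the strongest distal region of the 8 windows. The Park7 and Atp13a2 regions were called in all 4 libraries at 37 °C and in none at 39 °C.
Pink1, upstream of the 5′ end, chr4:138326308-138326546, minus strand: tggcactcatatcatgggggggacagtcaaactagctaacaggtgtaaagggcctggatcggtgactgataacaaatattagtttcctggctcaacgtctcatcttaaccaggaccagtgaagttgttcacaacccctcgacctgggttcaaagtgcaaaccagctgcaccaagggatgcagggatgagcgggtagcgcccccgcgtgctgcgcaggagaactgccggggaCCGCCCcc
Pink1, around the peak summit, chr4:138325624-138325923, minus strand: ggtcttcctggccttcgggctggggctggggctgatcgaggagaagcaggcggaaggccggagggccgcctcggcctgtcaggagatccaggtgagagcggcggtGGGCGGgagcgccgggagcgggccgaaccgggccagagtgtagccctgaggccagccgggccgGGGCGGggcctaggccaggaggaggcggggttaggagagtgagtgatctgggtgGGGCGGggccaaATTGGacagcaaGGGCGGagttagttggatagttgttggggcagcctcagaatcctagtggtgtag
Dnajc6, upstream of a RefSeq start, chr4:101507726-101507870, plus strand: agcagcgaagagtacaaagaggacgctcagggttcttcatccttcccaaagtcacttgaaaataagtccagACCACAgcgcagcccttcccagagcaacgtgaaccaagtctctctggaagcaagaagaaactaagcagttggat
Lrrk2 intron, around the summit, chr15:91703250-91703549, plus strand: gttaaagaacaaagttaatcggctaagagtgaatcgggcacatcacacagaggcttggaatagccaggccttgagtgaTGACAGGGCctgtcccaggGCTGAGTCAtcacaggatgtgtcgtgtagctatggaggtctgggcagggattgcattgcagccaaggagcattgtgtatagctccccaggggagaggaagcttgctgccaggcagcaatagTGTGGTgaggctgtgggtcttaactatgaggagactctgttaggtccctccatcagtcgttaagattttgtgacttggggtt
Park7 upstream region, around the summit, chr4:150922363-150922662, plus strand: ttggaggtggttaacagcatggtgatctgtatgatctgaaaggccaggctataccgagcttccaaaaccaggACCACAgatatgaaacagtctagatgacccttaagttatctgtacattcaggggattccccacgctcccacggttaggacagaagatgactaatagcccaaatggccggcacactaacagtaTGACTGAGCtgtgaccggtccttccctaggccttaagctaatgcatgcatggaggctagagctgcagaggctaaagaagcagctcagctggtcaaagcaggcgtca
Atp13a2 intron, around the summit, chr4:140988893-140989192, plus strand: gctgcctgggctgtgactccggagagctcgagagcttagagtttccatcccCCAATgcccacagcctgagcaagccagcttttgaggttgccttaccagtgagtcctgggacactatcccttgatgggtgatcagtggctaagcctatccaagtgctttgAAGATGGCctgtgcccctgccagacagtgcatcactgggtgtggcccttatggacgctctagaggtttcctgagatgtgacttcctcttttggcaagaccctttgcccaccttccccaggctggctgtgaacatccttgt
Atp13a2 downstream region, around the summit, chr4:141016311-141016610, plus strand: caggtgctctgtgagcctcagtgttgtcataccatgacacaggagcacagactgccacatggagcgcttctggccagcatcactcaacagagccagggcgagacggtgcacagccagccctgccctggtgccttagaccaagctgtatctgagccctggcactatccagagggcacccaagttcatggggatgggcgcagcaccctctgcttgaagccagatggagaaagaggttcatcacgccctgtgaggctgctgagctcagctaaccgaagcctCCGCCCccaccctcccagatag

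Pink1 (ENSMUSG00000028756.12, chr4:138313409-138326307, minus strand) was the one gene whose promoter peak gained rank at the non-permissive temperature. Its promoter region, chr4:138325221-138326785, also lies within 1 kb of a TSS of Gm27646. It was at percentile 94.2, 93.3, 93.2 and 93.7 in replicates 1 to 4 at 37 °C and at 95.2, 95.3, 95.3 and 95.4 at 39 °C. All 4 libraries at 39 °C stood above all 4 at 37 °C, and the difference was 1.71 points (93.6 ± 0.487 against 95.3 ± 0.0855, SD, n = 4 each). The exact two-sided permutation test gave p = 0.0286, the smallest that 4 against 4 allows, and 0.0540 after Benjamini-Hochberg adjustment over 13377 coding promoters. Only 0.538% of those promoters ranked higher at 39 °C without overlap, while 52.3% ranked lower. The share ranked higher was 1.21% without replicate 4 at 39 °C and 2.19% without the 2 deepest libraries.

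Because the lists differ in length, the same peak was also ranked among the promoter regions of coding genes alone. On that scale Pink1 stood at percentile 66.5, 63.1, 63.7 and 61.1 at 37 °C and at 76.3, 77.9, 76.6 and 81.2 at 39 °C. The groups were apart by 14.4 points, a larger rise than that of 99.6% of coding promoters (exact p = 0.0286, adjusted p = 0.124). Of all coding promoters, 10.6% were higher and 12.4% lower at 39 °C on this scale without overlap, and the other 6 genes overlapped. With equal numbers of peaks, the strongest 54845 of each list, Pink1 was at 91.1, 90.6, 90.8 and 89.4 at 37 °C and at 94.2, 94.4, 94.2 and 95.4 at 39 °C. The groups remained apart there too, while those of the other 6 genes overlapped, beside 8.01% of coding promoters that were higher and 15.2% that were lower under that setting.

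The higher rank did not come with a wider peak. The Pink1 promoter peak measured 1524, 1408, 1496 and 1544 bp at 37 °C and 1367, 1370, 1406 and 1298 bp at 39 °C, so every peak at 39 °C was narrower. The mean fell by 133 bp (exact p = 0.0286, adjusted p = 0.120), a direction shared by 23.7% of coding promoters without overlap, against 0.0972% that were wider. Leaving out replicate 3 at 37 °C raised that 23.7% to 49.8%. Pink1 was the only 1 of the 7 promoters whose widths did not overlap, but its widths overlapped as percentiles of the list, and the limma adjusted p was 0.168. Without replicate 3 at 37 °C, Atp13a2 was apart too. Relative to the 5′ end, the upstream edge of the Pink1 peak lay at −478, −370, −450 and −457 bp at 37 °C and at −333, −324, −401 and −272 bp at 39 °C, which overlapped (exact p = 0.0571). The fold enrichment of the peak over one background per library was 68.3, 73.6, 72.2 and 64.4 at 37 °C and 97.6, 86.4, 102.5 and 60.5 at 39 °C. Here replicate 4 at 39 °C, the shortest list, fell below all libraries at 37 °C, and the groups overlapped (exact p = 0.143). None of the 7 promoters was apart by fold enrichment, beside 6.73% of coding promoters that were lower and 0.262% that were higher.

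The position of the Pink1 summit did not move. It lay 531 to 534 bp downstream of the 5′ end in all 8 libraries, inside the gene and just past the first exon, and not at the annotated start, whereas the summits of the other 6 genes lay within 169 bp of theirs. The 300 bases around that summit are 68.7% GC, hold 20 CpG dinucleotides, and match GGGCGG at 4 places and CCAAT at 1, all in capitals above. GGGCGG is common at such sites, found in 68.6% of the 11639 promoter summits of coding genes, as is CCAAT, in 32.8%. Upstream of the 5′ end, the printed stretch holds 1 GGGCGG match and 56.1% GC.

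The window of Pink1 held 5 more regions, 3 of them called in all 8 libraries, and all 3 ranked lower at 39 °C without overlap. The Ddost promoter downstream of Pink1 (chr4:138303497-138305951) was at 93.8 ± 0.601 at 37 °C and 90.7 ± 1.53 at 39 °C. An intronic region of Pink1 (chr4:138317841-138320136) was at 63.8 ± 3.18 and 51.9 ± 4.54. The strongest distal region, in an intron of Cda upstream of Pink1 (chr4:138344657-138345772), was at 71.4 ± 1.64 and 66.7 ± 1.82. With equal numbers of peaks those 3 regions overlapped between temperatures, and the Cda region turned direction (57.5 against 61.6). The promoter of Cda itself (chr4:138343095-138343948) and a region in an intron of Ddost (chr4:138310560-138312339) were called in 4 libraries at 37 °C and 2 at 39 °C.

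**Figure D1:**
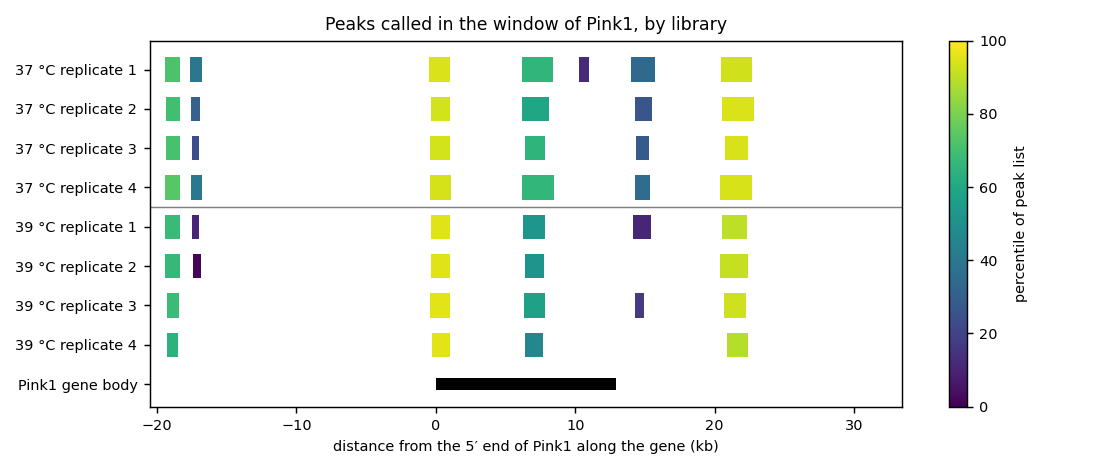
Peaks called in each library (rows) across the Pink1 window, plotted by distance from the 5′ end of Pink1 in kb and coloured by percentile within the library's list, with the gene body as a black bar. The promoter peak at 0 kb is bright in all 8 libraries (93.2 to 95.4), and weaker peaks to the right and left are missing from some libraries at 39 °C.

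At Park7 and Fbxo7, the other genes tied to mitochondria and oxidation, no promoter region ranked higher at 39 °C. Park7 (ENSMUSG00000028964.14, chr4:150897133-150914437, minus strand) had 3 promoter regions. The strongest, chr4:150913388-150915772, is shared with the TSS of Tnfrsf9, a receptor of the TNF family, and was at percentile 89.6, 90.5, 90.6 and 90.7 at 37 °C and 87.2, 86.9, 88.5 and 81.3 at 39 °C. It ranked lower in all 4 libraries at 39 °C, a difference of −4.36 points (exact p = 0.0286, adjusted p = 0.0540). The RefSeq start of Park7 lies in the next region, chr4:150908640-150910609, which was at 87.6 ± 0.813 at 37 °C and 82.9 ± 2.18 at 39 °C, also without overlap. The third, chr4:150901092-150902497, was at 45.9 ± 7.72 and 31.3 ± 2.27. With equal numbers of peaks both overlapped, the former at 81.4 against 80.3 and the latter turned, at 19.98 against 20.2.

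Fbxo7 (ENSMUSG00000001786.14, chr10:86021972-86051873, plus strand) had 1 promoter region, chr10:86021224-86023123, shared with A230060F14Rik. Its percentiles were 96.8, 97.7, 97.6 and 97.2 at 37 °C and 96.9, 95.6, 96.7 and 95.3 at 39 °C, and they overlapped through replicate 1 (exact p = 0.0571). The upstream edge of the peak was at −743, −748, −696 and −723 bp from the 5′ end at 37 °C and at −665, −606, −609 and −606 bp at 39 °C, so it lay nearer the gene in every library at 39 °C (exact p = 0.0286). That edge had drawn in without overlap at 2 of the 7 promoters, Fbxo7 and Atp13a2, beside 19.8% of coding promoters. The downstream edge had done so at 0 of 7, beside 20.2%.

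Among membrane and endosome genes, Lrrk2 (ENSMUSG00000036273.15, chr15:91673175-91816120, plus strand) had 2 promoter regions. The weaker, chr15:91781092-91781554 inside the gene, was called in 2 libraries at each temperature, at percentiles of 5.75 to 27.2. The stronger was chr15:91672241-91675334. It was at percentile 95.0, 95.6, 95.5 and 96.4 at 37 °C and 93.2, 94.1, 93.5 and 92.6 at 39 °C, a difference of −2.25 points without overlap (exact p = 0.0286, adjusted p = 0.0540). Its width was 3092, 2133, 1886 and 2409 bp at 37 °C and 2148, 2157, 1861 and 1968 bp at 39 °C. Replicate 1 at 37 °C, the deepest library, was the widest, and without it and replicate 4 the mean was 24 bp larger at 39 °C.

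Vps35 (ENSMUSG00000031696.9, chr8:85260392-85299802, minus strand) had the strongest and widest promoter region of the 7, chr8:85298441-85302475, which it shares with Orc6, a subunit of the replication origin complex. The region outranked 89.4% of coding promoters and was wider than 81.2% of them. Its percentiles, 98.6, 98.4, 97.8 and 98.7 at 37 °C and 97.9, 98.2, 98.2 and 97.5 at 39 °C, overlapped (exact p = 0.171). The widths were 4035, 3825, 3663 and 3871 bp at 37 °C and 3851, 3862, 3835 and 2390 bp at 39 °C. The narrow value was replicate 4 at 39 °C, in which the region was called as 2 peaks, of 2390 and 723 bp, and without that library the difference was 0.833 bp in place of −364 bp. The summit was 169 bp past the 5′ end in all 8 libraries.

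Atp13a2 (ENSMUSG00000036622.15, chr4:140986873-141007330, plus strand) had the weakest of the 7 promoters, at chr4:140986157-140987868, above only 19.03% of coding promoters. Its percentiles were 78.9, 79.7, 79.9 and 81.2 at 37 °C and 74.9, 74.3, 75.3 and 69.5 at 39 °C, a difference of −6.43 points without overlap (exact p = 0.0286, adjusted p = 0.0540). The upstream edge was at −716, −659, −559 and −659 bp from the 5′ end at 37 °C and at −502, −427, −477 and −483 bp at 39 °C (exact p = 0.0286). A second promoter region inside the gene, chr4:140995328-140996811, was called in 4 libraries at 37 °C, at percentiles of 57.1 to 65.0, and in 2 at 39 °C, at 20.3 and 27.2.

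Synj1 (ENSMUSG00000022973.18, chr16:90936092-91011308, minus strand) had a promoter region at chr16:91009628-91012748, shared with 4930404I05Rik. It was at 97.8, 97.7, 97.6 and 97.7 at 37 °C and at 97.2, 96.8, 97.2 and 95.2 at 39 °C, a difference of −1.10 points without overlap (exact p = 0.0286, adjusted p = 0.0540). Its widths overlapped, from 2712 to 2993 bp at 37 °C and from 2541 to 2952 bp at 39 °C.

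Across the 7 promoters, then, 4 ranked lower at 39 °C without overlap (Lrrk2, Park7, Atp13a2 and Synj1), 1 ranked higher (Pink1) and 2 overlapped (Vps35 and Fbxo7). The share of 4 in 7 is near the 52.3% of all coding promoters that ranked lower, whose median difference was −2.43 points, and none of the 4 remained apart with equal numbers of peaks. With equal numbers and without the 2 deepest libraries, however, all 4 were apart again, at −1.52 points for Lrrk2, −2.95 for Park7, −2.66 for Atp13a2 and −0.637 for Synj1, as was Fbxo7 at −1.21, beside 26.4% of coding promoters lower and 13.2% higher. Pink1 was then higher by 3.89 points. Leaving out replicate 4 at 39 °C moved the difference from −4.36 to −2.81 points at Park7 and from −1.10 to −0.639 at Synj1, still without overlap. Mean width was smaller at 39 °C at all 7, with a median difference of −207 bp against −285 bp over coding promoters. Without the 2 deepest libraries the difference was 24 bp at Lrrk2 and 12.3 bp at Park7, and without replicate 4 at 39 °C as well it was above 0 at Vps35 and Synj1 too. For width, percentile and distal regions together, 0 coding genes had an adjusted p under 0.05 by the exact test, while 3189, 7073 and 3638 genes, respectively, had an unadjusted p under 0.05. By limma, 1372 genes were narrower and 6 wider at 39 °C at an adjusted p under 0.05, and 7222 had a lower and 55 a higher percentile. The limma adjusted p was 0.00665 for Pink1, which was higher, and 0.00780 for Lrrk2, 0.00920 for Atp13a2 and 0.0416 for Park7, which were lower, while that of Synj1 was 0.0863. With replicate number as a block in limma, the lowest adjusted p of the 7 for percentile was 0.0592, for Pink1.

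**Figure D2:**
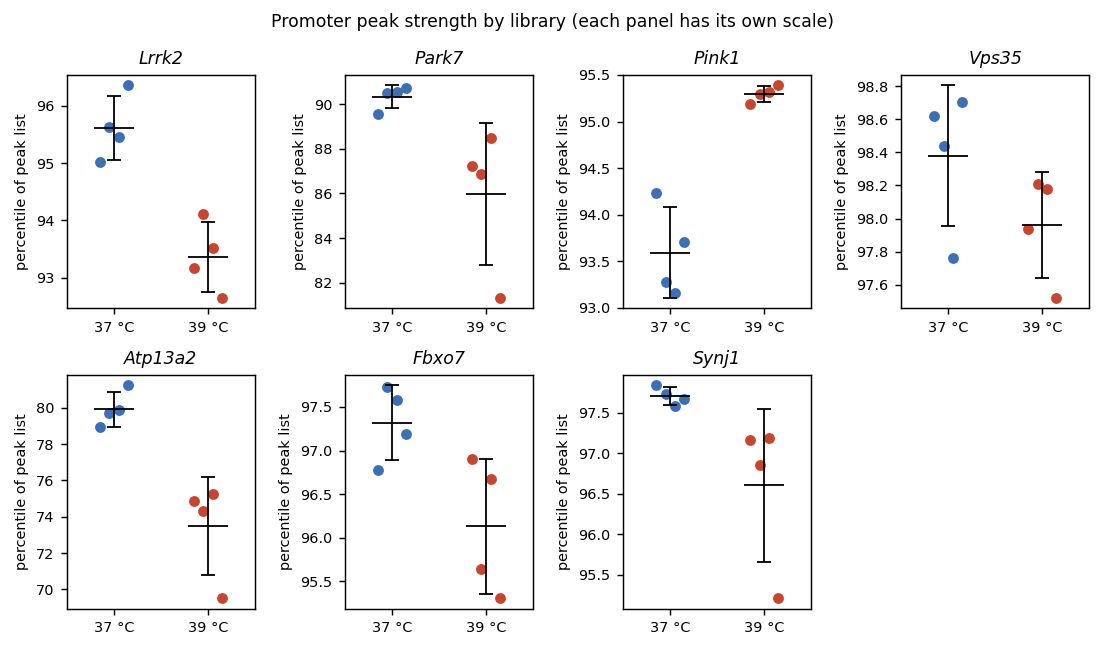
Percentile of the promoter peak within its library's list (vertical axes, each panel on its own scale) for 7 genes, with 4 libraries per temperature as points, the mean as a horizontal line and the SD as whiskers. Pink1 is the panel in which 39 °C lies above 37 °C, and the lowest point at 39 °C for Lrrk2, Park7, Vps35, Atp13a2, Fbxo7 and Synj1 is replicate 4.

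**Figure D3:**
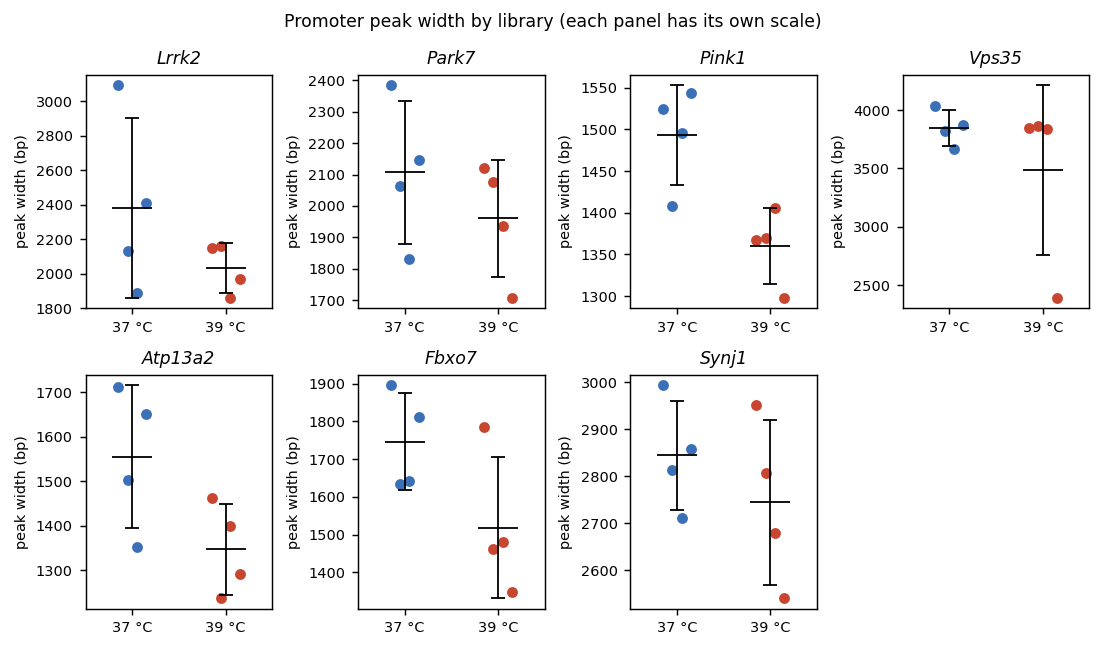
Width of the promoter peak in bp (vertical axes, each panel on its own scale) for the same 7 genes, with points for libraries, horizontal lines for means and whiskers for SD. The groups are apart for Pink1 alone, and a single library stands out at 39 °C for Vps35 (2390 bp).

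Dnajc6 (ENSMUSG00000028528.16, chr4:101496648-101642799, plus strand) stood apart from the rest. Across its window of 186 kb no library called a peak within the gene or within 1 kb of its TSSs, and no distal region was found. The one region of the window was the promoter of the neighbouring Leprot (chr4:101646547-101648927), which encodes a membrane protein of endosomal transport. That region was called in all 8 libraries, at 96.8 to 97.9 at 37 °C and 96.0 to 97.7 at 39 °C. The absence of a peak at Dnajc6 is not rare: 31.9% of coding genes had no promoter region, and of 1526 coding windows at least as long, 184 (12.1%) had no distal region, 139 of them with no promoter region either. The other clathrin and endocytosis genes mostly differed from it, with 20 of 23 carrying a promoter region in all 8 libraries. These include Gak, which encodes the widely expressed relative of auxilin, at 97.4 to 98.4 at 37 °C and 96.0 to 97.2 at 39 °C. The 3 without were Amph, with no promoter region, Sh3gl2, in 4 libraries at 37 °C and 0 at 39 °C, and Sh3gl3, in 4 and 3.

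CpG content was lower at both Dnajc6 starts than at the promoters with a peak, while GC content overlapped at one of them. The 8 RefSeq promoters (250 bases before to 50 after a start) of the 6 genes with both an entry and a peak were 58.0% to 74.0% GC, with 0.714 to 1.09 times the CpGs that their base content predicts. For the 2 starts of Dnajc6 these values were 48.3% and 0.523, and 58.7% and 0.661. Over 32841 promoters the medians were 52.7% and 0.384, so both starts of Dnajc6 had more CpGs than the median promoter. GGGCGG was found in promoters of Lrrk2, Park7, Pink1, Atp13a2 and Synj1 and at the second start of Dnajc6, and in 35.7% of all promoters. Fbxo7 had TCACGTG, the core of the element bound by lysosomal regulators, at its second start read on both strands, and 3.77% of all promoters hold that motif. Atp13a2, the lysosomal gene, had no match to these letters in the 300 bases of its RefSeq promoter. The Dnajc6 stretch printed above matches TGTGGT at 1 place, as do 16.8% of promoters.

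Around the promoters, no region of the 8 windows was called in more libraries at 39 °C than at 37 °C. The windows held 45 regions: 11 promoter regions of the 8 genes, 12 of other genes and 22 distal regions, more than 1 kb from any TSS. Of the 45, 25 were called in all 8 libraries (55.6%, against 52.9% of all 84777 regions). Among distal regions this was 10 of 22 (45.5%, against 45.7%). More libraries called the region at 37 °C for 17 of the 45 and at 39 °C for 0, against 32145 and 4626 over all regions. Of the 25 regions called in all 8 libraries, 17 ranked lower at 39 °C without overlap, 7 overlapped and 1, the Pink1 promoter, ranked higher. Over all 44861 such regions 54.2% ranked lower and 0.798% higher, the latter 2.56% without replicate 4 at 39 °C. With equal numbers of peaks the 24 regions then called in all libraries gave 4 lower and 3 higher, beside 22.5% lower and 15.5% higher of all regions under that setting. Without the 2 deepest libraries as well, which left 2 at 37 °C against 4 at 39 °C, 11 of 24 were lower and 3 higher, beside 28.7% and 22.97%. The 3 higher with equal numbers were the Pink1 promoter, the Lrrk2 intronic region described next and a region upstream of Synj1 (chr16:91015393-91016531).

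**Figure D4:**
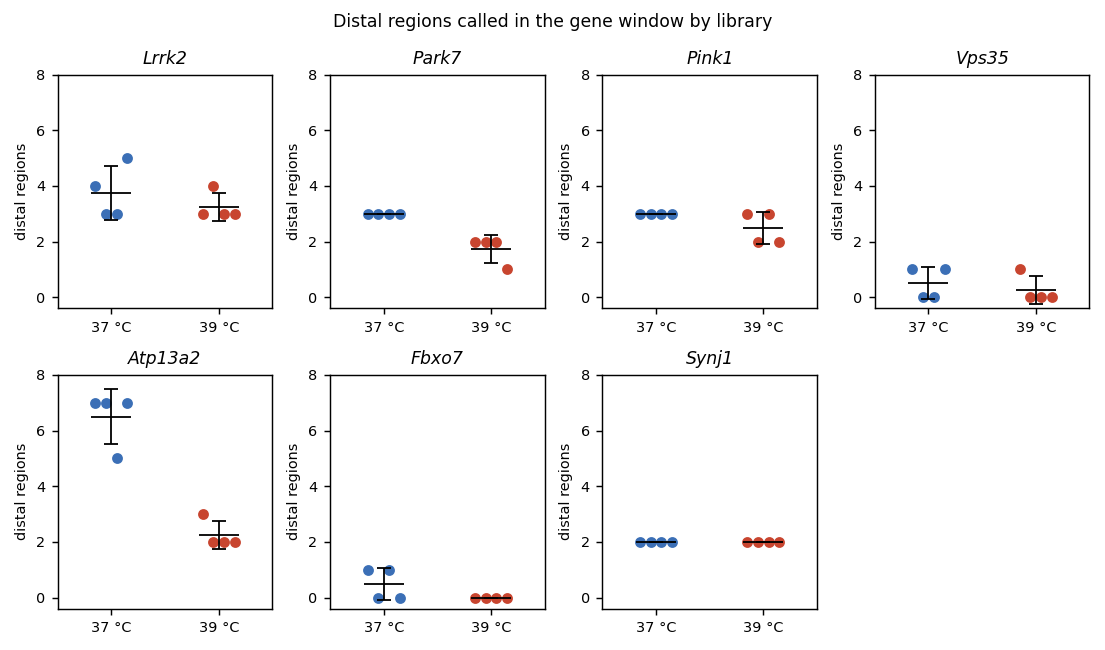
Number of distal regions called per library (vertical axes from 0 to 8) in the windows of 7 genes at 37 °C and 39 °C, with points for libraries, horizontal lines for means and whiskers for SD. Atp13a2 and Park7 are the panels in which the groups do not overlap, and Dnajc6, with 0 in every library, is not drawn.

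Of the 8 windows, Atp13a2 had the most distal regions and the largest difference between temperatures. The lists called 7, 7, 5 and 7 of its 7 distal regions at 37 °C and 3, 2, 2 and 2 at 39 °C, a difference of −4.25 (exact p = 0.0286, adjusted p = 0.125). Park7 followed with 3 in each library at 37 °C and 2, 2, 2 and 1 at 39 °C (exact p = 0.0286, adjusted p = 0.125). These 2 windows, of the 7 with any distal region, compare with 22.6% of 15911 coding windows that were lower without overlap and 0.314% that were higher. Without replicate 3 at 37 °C the first share was 34.4%, and without replicate 4 at 39 °C the second was 1.21%. Of the 683 coding windows with as many distal regions as Atp13a2, 41.0% were lower. With equal numbers of peaks neither window was apart: the difference was 0.25 for Atp13a2 and −0.25 for Park7.

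Distal counts in the other windows overlapped. Lrrk2 had 4, 3, 3 and 5 at 37 °C and 3, 4, 3 and 3 at 39 °C. Pink1 had 3 in each library at 37 °C and 3, 2, 3 and 2 at 39 °C, and Synj1 had 2 in all 8. Vps35 had 1, 0, 0 and 1 against 1, 0, 0 and 0, and Fbxo7 had 1, 0, 1 and 0 against 0 in each. The Fbxo7 window also held the promoter of Syn3, a synapsin gene (chr10:86064399-86066840), called in all 8 libraries. It was at 75.9 ± 1.66 at 37 °C and 66.1 ± 3.40 at 39 °C, without overlap also with equal numbers of peaks (64.1 against 61.0).

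Of the 45 regions, 4 were called in every library at 37 °C and in none at 39 °C (8.89%, beside 6.04% of all regions), and 0 the other way round (beside 0.314%, or 0.934% without replicate 4 at 39 °C). Without replicate 3 at 37 °C 6 regions of the windows were restricted to one temperature, and 10.4% of all regions were restricted to 37 °C. With equal numbers of peaks 1 region of the windows was restricted to 37 °C, beside 2.67% of all regions, while 1.92% of all regions were restricted to 39 °C. Fisher's exact test for 4 libraries against 0 gives p = 0.0286, and over 84777 regions the smallest adjusted p was 0.450, with 5386 under 0.05 unadjusted and 0 after adjustment. All 4 lay in the Park7 and Atp13a2 windows. The Park7 region (chr4:150921358-150922623) lies at −8076 bp from its 5′ end, in introns of Tnfrsf9 and Camta1. It was at percentile 40.3, 23.7, 16.01 and 37.1 in replicates 1 to 4 at 37 °C. The 300 bases around its summit, printed above, hold a match to TGTGGT, found in 34.7% of 62673 distal regions, and to TGACNNNGC, found in 16.8%.

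The Atp13a2 window held the other 3. The intronic region (chr4:140988646-140989871), 2170 bp past the 5′ end, was among the weakest peaks of its lists, at 4.82, 13.3, 8.34 and 5.13. The region between Mfap2 and Crocc (chr4:141016213-141017533) was weaker still, at 4.82, 1.66, 4.48 and 2.73. The last is a promoter region of Crocc, which encodes the ciliary rootlet protein (chr4:141021210-141022152), at 13.0, 11.8, 25.5 and 26.6. Around its summit the intronic region matches CCAAT (31.6% of distal regions) and AAGATGGC (1.76%), and the region between Mfap2 and Crocc matches GGGCGG (7.97%).

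Further regions of that window were called in at least 3 more libraries at 37 °C. Fisher's exact test gives p = 0.143 for 4 libraries against 1 and for 3 against 0. One region, chr4:141006925-141008896 (4 against 1), spans the 3′ end of Atp13a2, with its summit past it. It was at percentile 21.1 to 37.1 at 37 °C and 2.21 at 39 °C. The others were weak, chr4:141005564-141006202 in an Atp13a2 intron (3 against 0) at 4.15 to 6.89 and chr4:141013730-141015788 in Mfap2 (3 against 0) at 13.8 to 18.8. The Mfap2 promoter (chr4:141010952-141013261), of a gene for a microfibril protein, was called in all 8 libraries. It was at 53.02 ± 2.99 at 37 °C and 19.6 ± 11.03 at 39 °C, without overlap also with equal numbers of peaks (30.2 against 7.64). The strongest distal region (chr4:140983064-140983978) lay at −3191 bp from the 5′ end of Atp13a2 and was at 53.2 ± 3.86 and 34.0 ± 18.6, the latter spread by replicate 4, at 6.14. With equal numbers of peaks its groups overlapped (30.5 against 25.0).

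**Figure D5:**
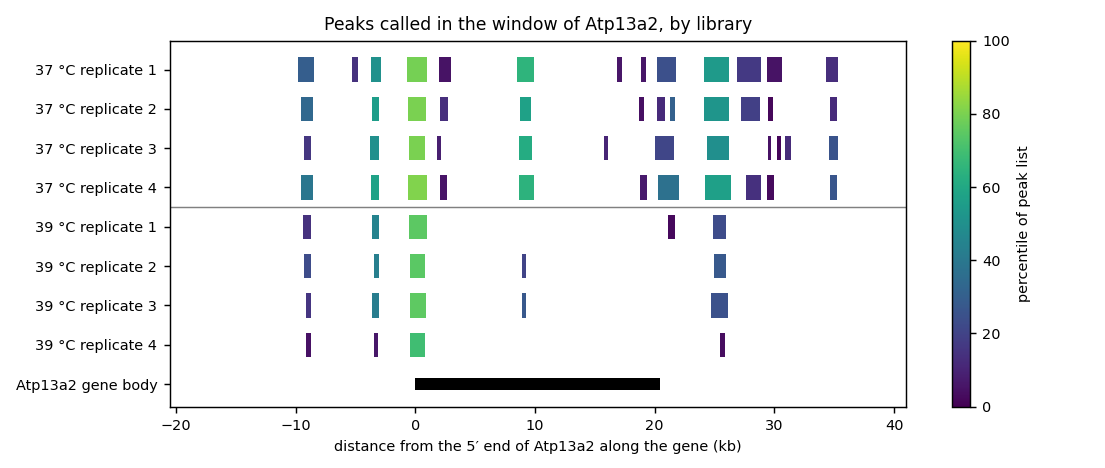
Peaks called in each library (rows) across the Atp13a2 window, by distance from the 5′ end in kb and coloured by percentile within the library's list, with the gene body as a black bar. The promoter peak at 0 kb is present in all 8 libraries, whereas most of the dark, low-ranking peaks downstream of it appear in the 4 rows at 37 °C.

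Lrrk2 carried a distal region that ranked close to its promoter. That region (chr15:91702766-91704374) lies in an intron, 30225 bp past the 5′ end, and was at 92.9, 93.1, 93.2 and 94.8 at 37 °C and 93.7, 95.3, 94.6 and 92.1 at 39 °C. The groups overlapped (exact p = 0.657), although they were apart with equal numbers of peaks, at 90.4 against 93.0. With the Pink1 promoter it was 1 of 2 regions among the 25 whose mean percentile was larger at 39 °C, beside 3961 of all 44861 such regions, a similar share. Around its summit the sequence matches TGACNNNGC at 2 places, the first on the printed strand. The second, on the other strand, holds the 1 match to TGANTCA, the AP-1 site, and TGTGGT lies farther downstream. TGANTCA was found in 38.5% of distal regions and in 7.47% of promoter summits.

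Within Lrrk2, the other distal regions called in all 8 libraries ranked lower at 39 °C. The one at chr15:91690407-91691206 went from 67.9 ± 2.55 to 60.2 ± 3.69, and the one at chr15:91735120-91735785 from 52.1 ± 4.12 to 29.5 ± 10.7, both without overlap. With equal numbers of peaks the first overlapped and turned direction (52.3 against 54.1), while the second remained apart (29.0 against 19.2). The leading distal regions of the remaining genes were weaker. In Park7 it was intronic (chr4:150898248-150899681), at 57.3 ± 5.52 and 39.1 ± 7.85 without overlap, though with overlap at equal numbers of peaks (36.8 against 29.9). Upstream of Synj1 it lay in an exon of 4930404I05Rik (chr16:91015393-91016531), at 74.0 ± 3.31 and 69.9 ± 3.95 with overlap. With equal numbers of peaks that region turned direction and was apart (61.5 against 65.5). Those of Vps35 (chr8:85311690-85312023) and Fbxo7 (chr10:86069783-86070282) were called in 3 and 2 libraries.

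The partners of these genes in their pathways were read from lists of genes. For retromer, sorting nexins and WASH, 14 of 14 genes had a promoter region in all 8 libraries, as did 16 of 16 LRRK2 partners and Rab substrates and 11 of 11 genes of SCF ligases and proteasome regulators. The shares were 21 of 22 for mitophagy and the outer mitochondrial membrane (not Calcoco2) and 15 of 17 for lysosome and related ATPases (not Atp13a4 and Atp13a5), beside 61.6% of all coding genes. By percentile within the list, 5 of 14 retromer genes, 8 of 21 mitophagy genes, 8 of 20 clathrin genes, 4 of 15 lysosomal genes, 8 of 16 Rab genes and 5 of 11 ligase genes ranked lower at 39 °C without overlap. None of the genes on the 6 lists ranked higher on that scale without overlap. Of all coding promoters, 52.3% ranked lower and 0.538% higher.

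Ranked among coding promoters, some partners were apart between temperatures. Higher at 39 °C were 1 of 14 retromer, 1 of 21 mitophagy, 3 of 20 clathrin, 2 of 15 lysosomal, 1 of 16 Rab and 2 of 11 ligase genes, beside 10.6% of all coding promoters. Lower were 1, 1, 2, 0, 0 and 0 of them, beside 12.4%. In the mitophagy list this was Tbk1, a kinase that activates autophagy receptors, from 77.1 to 81.5, while Phb2 was lower, from 68.8 to 60.8. In the lysosomal list Atp6v1a, a subunit of the proton pump, went from 67.8 to 74.9. For the clathrin list, Cltb, a light chain, went from 43.1 to 56.8, and Dnm3 and Itsn2 were also higher, with Sh3gl1 and Ap2s1 lower. Cul1, the scaffold of SCF ligases, went from 70.7 to 79.1, and Psmf1, Bag5 and Washc5 were higher too, with Snx27 lower. The gain of Pink1 on this scale, 14.4 points, compares with 13.7 for Cltb, the largest on the 6 lists.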

How the data were processed

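ATAC-seq was performed on SN4741 cells, with 4 libraries at 37 °C and 4 at 39 °C, grouped by the temperature in their labels. The authors aligned reads to mm10 with Bowtie2 2.4.1 and sorted, deduplicated and indexed them with SAMtools 1.15.1 and Picard 2.26.11. Peaks were called per library with MACS3 3.0.0a7 at q 0.05, with no control library. The paper also removed peaks over blacklisted regions with bedtools 2.30.0. Per the file headers, each deposited peak has a length in bp, a pileup (signal, the fragment coverage at the summit), a fold enrichment (ratio to the background) and −log10 p and −log10 q values. Pileup and −log10 q are not scaled for depth across libraries, the fold is relative to a background set in each library, and the length of a list did not follow its depth alone.

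From the deposited lists, peaks of the 8 libraries sharing 1 bp or more were joined, regions called in at least 2 libraries were kept (84777), and genes were taken from GENCODE M21. Where a library had several peaks in a promoter region, the strongest gave width and percentile. Genes were named by the list itself, and regions by libraries called and percentile. Groups were compared by an exact two-sided permutation test over 70 assignments of libraries, with Benjamini-Hochberg adjustment over all genes or regions tested, and presence by Fisher's exact test. A difference was called where the groups did not overlap. limma 3.58.1 (R 4.3.3) was an alternative. Scripts used Python 3.11.15, numpy 2.4.6, pandas 2.3.3 and scipy 1.17.1 and were tested on simulated data. Alternatives covered the promoter distance, window, overlap, q threshold, equal numbers of peaks, and leaving out libraries. The genes and lists were chosen with earlier results of these data known. Ranks among coding promoters, edges, the percentiles of regions in all libraries and the printed sequences were chosen after values were seen.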

Additional observations from a re-analysis of the deposited data

Results flagged for a closer look

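In 42 groups of 4 libraries, 7 single libraries stood far from the other 3, where chance gives about 1 in 20. Replicate 4 at 39 °C, the shortest list, gave 3 of them: the Vps35 promoter peak was 2390 bp wide, the Atp13a2 promoter was at percentile 69.5, and Park7 had 1 distal region. At 39 °C, replicate 2 had 4 distal regions at Lrrk2, and replicate 1 had 1 at Vps35 and 3 at Atp13a2. At 37 °C, replicate 3 had 5 distal regions at Atp13a2. The distal counts are small whole numbers, in which a single region sets a library apart.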

How the results depend on the processing

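Of 317 recomputed gene values, 273 neither reversed nor crossed the threshold (some distal differences at Lrrk2 and Pink1 went to 0), 21 lost the call, 8 gained one and 15 reversed, and of 83 counts 67 stayed within 1.5 times. The higher percentile of Pink1 kept its call in each alternative except limma with the replicate block (adjusted p = 0.0592). Ranking by fold enrichment gave the same order by construction and is no check. With equal numbers of peaks, calls went from 2 to 0 for distal regions, from 4 to 1 for regions restricted to 37 °C, from 5 to 1 for promoter percentile (1 also by rank among coding promoters), and from 18 of 25 to 7 of 24 for regions called in all libraries. Without the 2 deepest libraries as well, which left 2 at 37 °C against 4 and made calls easier to reach, promoter percentile gave 6 calls. Of 24 regions, 11 were then lower and 3 higher. Distal calls were 0 with promoters within 5 kb, 1 with 50% of the region covered and 1 in the gene body alone, where 1 region was restricted. Width calls, 1 in the report (Pink1), were 0 by width percentile, 0 by limma and 2 without the 2 deepest libraries and 39 °C replicate 4. The replicate block gave 0 calls for width, beside 565 coding promoters narrower and 1 wider. For percentile it also gave 0 calls (limma adjusted p of 0.0598 for Lrrk2, 0.0618 for Atp13a2 and 0.0935 for Park7), with 4 coding promoters lower and 0 higher. Labels do not say whether replicate numbers pair the libraries. Same-numbered deviations correlated at −0.606 to 0.318 for percentile and −0.138 to 0.173 for width, which with 4 pairs cannot settle it. With distal counts paired by number, Park7 and Atp13a2 gave an exact sign-flip p of 0.125, the smallest possible. Leaving out each library gave 1 to 2 width calls (2 without 37 °C replicate 3 or 39 °C replicate 1), 5 to 6 percentile calls, 4 to 6 restricted regions and 18 to 21 regions called.

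Reversals, whose cause was not tested, were the following. Distal regions differed by 0.25 at Atp13a2 with equal numbers of peaks. Percentile differed at Vps35 by 0.0403 with equal numbers, 0.131 by rank among coding promoters and 0.268 with equal numbers and no 2 deepest libraries, and at Atp13a2 by 0.393 by that rank. Width differed without the 2 deepest libraries by 24 bp at Lrrk2 and 12.3 bp at Park7, and without 39 °C replicate 4 as well by 45.8 bp at Lrrk2, 96.7 bp at Park7, 105 bp at Vps35 and 49.7 bp at Synj1. As a width percentile it differed by 0.413 at Park7, 0.0270 at Vps35 and 1.82 at Synj1. Leaving out each library in turn, width differed by −490 to 0.833 bp at Vps35, −511 to −109 bp at Lrrk2, −238 to −53.8 bp at Park7 and −169 to −31.8 bp at Synj1. With 4 libraries a group, no exact p can fall below 0.0286, and presence depends on the length of each list.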
